A study of Mus musculus with 36 samples.

Results

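The 6 arrays described here are the saline controls of a mouse study of inflammation and appetite, the samples whose titles call them hypothalamus, control, replicate 1 to 6. They are 6 of the 36 arrays of the series, and all 18820 genes that could be named from the deposited values were read on them. The study asked how the cytokines TNFα and IL-6, injected alone or together, change food intake and the hypothalamus, and it held 6 groups of 12 mice with arrays for 6 mice each. The cytokine-treated arrays were not used here. The Control mice were male C57BL/6 mice of about 20 g, kept individually under 12 h of light and 12 h of dark, with food given from 1 h before the dark phase until the lights came on. They were injected intraperitoneally with 50 µl of saline (vehicle) 1 h before the dark phase and killed 5 h later, so the values belong to the dark phase, when mice eat. The labels name no transgene or deletion. The whole hypothalamus of each mouse gave 1 extract of total RNA with a RNA Integrity Number over 8, and 100 ng of it went onto 1 Affymetrix Mouse Gene 1.1 ST array. For Control replicates 5 and 6 the label and the array's name carry different mouse numbers. Their group is Control in both places, so both arrays were kept.

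The hypothalamus lies at the floor of the brain around the third ventricle and controls feeding, water balance, body temperature, sleep and the pituitary gland. Its neurons are known by the peptides they release. In the arcuate nucleus, neurons that make neuropeptide Y drive eating and neurons that make pro-opiomelanocortin restrain it. Large neurons of the paraventricular and supraoptic nuclei make vasopressin and oxytocin and send them to the blood through the posterior pituitary. Smaller neurons release hormones such as thyrotropin-releasing hormone and somatostatin, which govern the anterior pituitary. Glia, vessels, the ependyma of the ventricle and the meninges under the brain lie beside these neurons. Thalamus, midbrain, pituitary stalk and optic tract border the tissue, so that a piece taken by hand can hold more or less of them.

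The values are log2 intensities, so that a step of 1 is a doubling of the signal. A gene was taken as over the minimum with an intensity above 20 (4.32 on the log2 scale) on at least 3 of the 6 arrays. That held for 14360 of 18820 genes (76.3%) and for 81 of 990 olfactory receptor genes (8.18%), which the brain is not known to use widely. The mean of 95% of those receptor genes lay under 4.57, and 13592 genes were above that level. Between arrays the log2 values of all 18820 genes correlated at 0.986 to 0.995. The median SD of a gene over the 6 mice was 0.146, with quartiles of 0.104 and 0.199. Deviations from the gene means were widest on Control replicates 1, 5 and 6, with an SD of 0.187 to 0.197, against 0.135 to 0.143 on the other 3 arrays. Control replicate 1 held the lowest value of 38.5% of the genes, and Control replicates 2 to 6 held that of 8.73%, 9.53%, 8.35%, 20.3% and 14.6%. The highest value lay on Control replicates 2 to 6 for 18.1%, 13.1%, 16.4%, 19.9% and 23.4% of the genes, and on Control replicate 1 for the other 1293 genes. Each mouse has 1 array, so that differences between mice, dissection, RNA and hybridization cannot be told apart. In whole tissue, fewer cells of a type and less RNA per cell cannot be told apart either.

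The strongest signals belonged to genes that every cell uses and to genes of neurons and astrocytes. Gapdh, the glycolytic enzyme, stood first at a mean log2 intensity of 13.23 ± 0.04 (SD, n = 6). Vsnl1, a neuronal calcium sensor, followed at 12.70 ± 0.06 and Eef1a1, a translation factor, at 12.67 ± 0.07. These 3 genes had almost no spread between the mice. Snap25, which drives the fusion of synaptic vesicles, stood at 12.47 ± 0.05, and Sparcl1, a matrix protein made by astrocytes, at 12.47 ± 0.03. The other 15 of the 20 highest named genes were Hspa8, Fth1, Hsp90aa1, Cd81, Actb, Tuba1b, Scd2, Sparc, Ywhaz, Mt2, Rpl21, Rtn1, Map1b, Meg3 and Ywhah, between 12.01 and 12.52. They include heat shock proteins, the iron store ferritin, cytoskeletal proteins, the metallothionein Mt2 and the imprinted long RNA Meg3. In the whole order 7 predicted genes or small RNAs were passed over. The order is one of signal and not of transcript numbers, since probe sets differ in how well they bind, and Gapdh and Rpl21, with 17 and 41 clusters to their names, have many near-identical copies that can share signal. With the mean over a gene's clusters in place of the highest, Fth1 fell from 12.37 to 9.06, Ywhaz from 12.20 to 11.39 and Gapdh from 13.23 to 12.55, which is under Vsnl1.

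**Figure D1:**
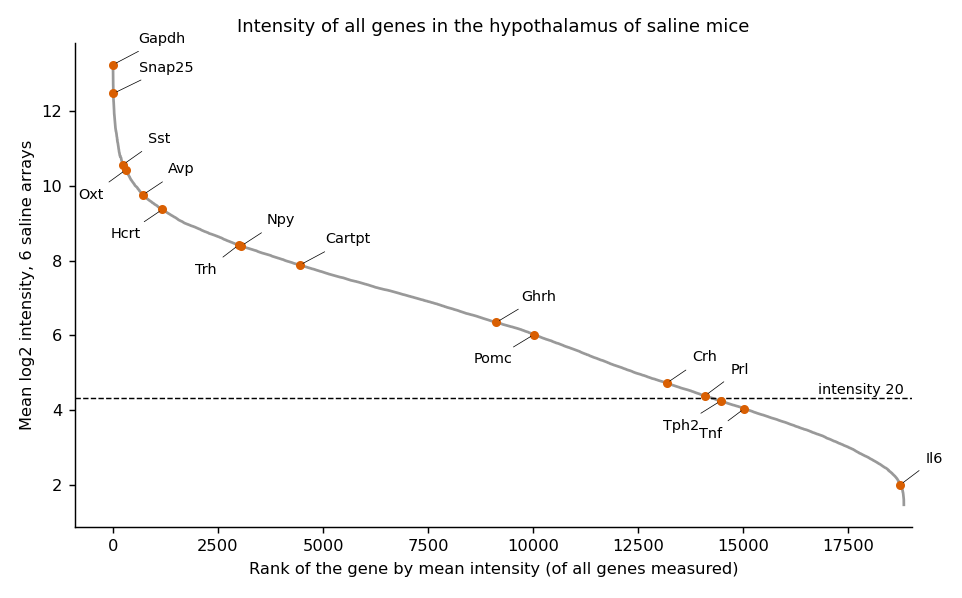
Mean log2 intensity of all 18820 genes on the 6 saline arrays (vertical axis) against their rank (horizontal axis). Orange points name 16 genes, and the dashed line is the minimum intensity of 20. Sst and Oxt lie near the top of the curve, Pomc at 6.02 in its lower part, and Tnf and Il6 under the line.

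Peptide genes spanned nearly the whole range of signal. Of the peptide and granin genes in the lists, 49 were over the minimum, with a median log2 level of 7.05, against 7.01 over all genes over the minimum, and 13 of them were above 9. Among peptides that promote eating, Penk, the precursor of enkephalins, was high and nearly equal in all mice at 10.35, 10.49 and 10.55 (lowest, median and highest array). Hcrt, the precursor of orexins, was at 8.98, 9.43 and 9.68. Npy was at 7.68, 8.29 and 9.30, which is a 3.06-fold range of intensity among mice given the same saline. Control replicate 1 held the highest Npy value and Control replicate 6 the lowest, with the other 4 mice between 8.12 and 8.69. Gal, the precursor of galanin, ran from 6.75 on Control replicate 6 to 7.55 on Control replicate 5. Pdyn, the precursor of dynorphins, ran from 6.11 to 6.81 on the same arrays. Galp (4.41 ± 0.18) and Qrfp (5.16 ± 0.18), both restricted to few neurons, were near the lower end of the measured range. All 7 measured members of the list were over the minimum, and the 2 others, Agrp and Pmch, were not analysed here.

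Peptides that restrain eating had a median level of 5.83, against 7.25 for those that promote it. Cartpt, a peptide of arcuate and other neurons, was at 7.76, 7.89 and 8.04, and Nucb2, the precursor of nesfatin, at 8.16, 8.26 and 8.31. For both, the 6 mice lay close together. Pomc was at 5.65, 5.99 and 6.61, with Control replicate 6 highest, the same array on which the pituitary hormone gene Gh stood out at 8.96. Pomc is also a gene of the pituitary, and the part of pituitary tissue in its value was not tested. Cck, the precursor of cholecystokinin, had the widest spread of all 49 peptide genes at 6.45, 7.08 and 8.05, again with Control replicate 6 on top. Of the 12 genes of the list 11 were over the minimum with a median SD of 0.16, against 0.15 over all genes. Nmu (3.68) was under it, and Ucn3, a peptide of the perifornical area, lay between 4.12 and 5.34.

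Vasopressin and oxytocin are carried by neighbouring genes of chromosome 2 that face each other. In RefSeq's GRCm38.p6 coordinates the 250 bases before the start of Avp are chr2:130582589-130582838 on the minus strand, and those of Oxt are chr2:130575919-130576168 on the plus strand. They are shown because both transcripts were lowest and highest on the same arrays. Capitals mark TGACC, read as GGTCA on the other strand, a half-site that nuclear receptors bind, and the E-box CACGTG, which clock factors bind, both searched on both strands.
Avp: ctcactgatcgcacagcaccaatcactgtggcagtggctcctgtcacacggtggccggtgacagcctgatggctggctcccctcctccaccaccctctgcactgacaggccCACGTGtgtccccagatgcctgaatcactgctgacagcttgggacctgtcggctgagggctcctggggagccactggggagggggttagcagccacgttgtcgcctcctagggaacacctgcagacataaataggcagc
Oxt: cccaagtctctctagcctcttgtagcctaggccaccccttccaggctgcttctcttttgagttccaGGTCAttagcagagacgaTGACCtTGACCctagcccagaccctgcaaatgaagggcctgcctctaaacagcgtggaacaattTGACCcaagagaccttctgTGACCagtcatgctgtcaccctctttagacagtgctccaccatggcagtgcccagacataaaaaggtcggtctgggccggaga
The Oxt window held 5 half-sites and no E-box, and the Avp window 1 E-box and no half-site. TGACC was found in 35.2% of the 32851 windows of this length in the RefSeq table, 5 or more times in 14 of them, and CACGTG in 6.02%. The motifs do not overlap each other here, and no measure of binding was made.

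Oxt was at 9.80, 10.46 and 10.78 and Avp at 8.95, 9.77 and 10.51. For both genes Control replicate 6 was lowest and Control replicate 5 highest, while the other 4 arrays lay between 10.32 and 10.72 for Oxt and between 9.68 and 9.86 for Avp. The range of intensity was 1.98-fold for Oxt and 2.95-fold for Avp. Over the 6 mice the genes correlated with r = 0.87 (two-sided exact permutation p = 0.0375, adjusted p = 0.113 over the 15 gene pairs examined) and rho = 0.60 (exact permutation p = 0.242, adjusted p = 0.518). Without Control replicates 5 and 6, the arrays farthest from the median of Avp, r was -0.21 over 4 mice, so the relation rests on those 2 arrays.

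Of the hormones that act on the anterior pituitary, Sst, somatostatin, had the strongest signal, with a mean of 10.57 ± 0.31, a median of 10.62, a highest value of 10.86 and a 1.81-fold range of intensity. Trh, thyrotropin-releasing hormone, was at 7.85, 8.42 and 8.88. Ghrh, growth hormone-releasing hormone, was at 5.83, 6.31 and 6.95. Control replicate 6 was the lowest array for all 3, and Control replicate 1 the highest for Sst and Ghrh. Gnrh1, gonadotropin-releasing hormone, was at 6.72 ± 0.21 and Crh, corticotropin-releasing hormone, only just over the minimum at 4.73 ± 0.24. Crh ran the other way, with its lowest value on Control replicate 1 (4.33) and its highest on Control replicate 6 (5.06). Npvf was at 4.95 ± 0.29, and all 6 measured members of the list were over the minimum. Ghrh and Sst were correlated with r = 0.91 (exact permutation p = 0.0125, adjusted p = 0.0573) and rho = 0.94 (exact permutation p = 0.0167, adjusted p = 0.125). It was 0.97 without the 2 arrays farthest from the median of Ghrh, and it did not pass the adjustment over the 15 pairs. Trh and Crh gave r = -0.60 (exact permutation p = 0.183, adjusted p = 0.38) and rho = -0.49 (exact permutation p = 0.356, adjusted p = 0.593). Pomc and Cartpt gave r = -0.06 (exact permutation p = 0.929, adjusted p = 0.929) and rho = 0.26 (exact permutation p = 0.658, adjusted p = 0.898), and neither pair passed.

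**Figure D2:**
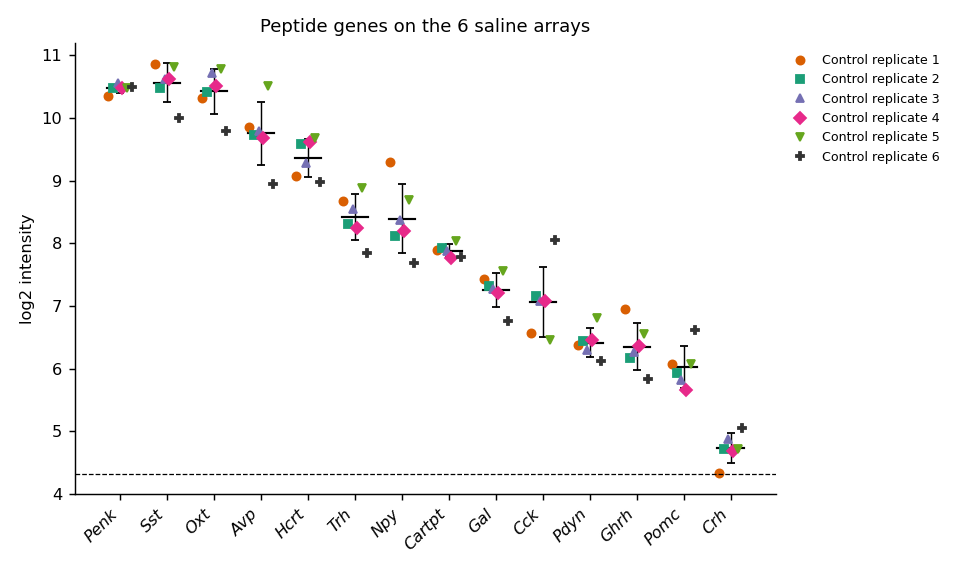
log2 intensity of 14 peptide genes (horizontal axis) on each of the 6 saline arrays, with a horizontal bar for the mean, an error bar for the SD and a dashed line at the minimum intensity. Control replicate 6 is lowest for Sst, Oxt, Avp, Hcrt, Trh, Npy, Gal, Pdyn and Ghrh and highest for Cck, Pomc and Crh.

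Taking the 49 peptide genes as one set, 17 (34.7%) had their lowest value on Control replicate 6, against 14.6% of all genes over the minimum. On the same array 11 (22.4%) had their highest value, against 23.4%, and the mean deviation of the peptides that restrain eating was 0.14 there, their highest. Of the 11 genes behind that mean 7 were above their own mean on this array and 4 below it. Cck (8.05, against a mean of 7.06) and Pomc (6.61, against 6.02) lay farthest above it. Of the 49 genes 19 (38.8%) had their highest value on Control replicate 5, against 19.9%. Among the other neuropeptides, Tac1, the precursor of substance P, was at 8.18, 8.49 and 8.93, and Tac2, of neurokinin B, at 8.27 ± 0.11. Vip and Grp, peptides of the suprachiasmatic clock, were at 6.28 ± 0.24 and 6.07 ± 0.15. Genes that make and pack peptides had strong signals. Cpe, a carboxypeptidase that trims peptides, stood at 11.65 ± 0.16, the granins Scg3 and Chga at 10.50 ± 0.06 and 10.28 ± 0.10, and the convertase Pcsk1 at 8.48 ± 0.12. Pcsk1n, the inhibitor of that convertase, had an SD of 0.27, with 9.54 on Control replicate 6 and 10.29 on Control replicate 5. All 24 measured members of the list of other neuropeptides and granins were over the minimum, and 0 of them had an SD in the top 5% of all genes.

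Receptors for feeding and metabolic signals were over the minimum in 33 of 35 cases. Their median level was 6.72, against 7.01 over all genes, and their median SD 0.178, against 0.146. Ntrk2, the receptor of brain-derived neurotrophic factor, was strongest at 10.30 ± 0.07, followed by Htr2c, a serotonin receptor that restrains eating, at 9.25 ± 0.26. The insulin receptor Insr was at 8.68 ± 0.13, the glucagon-like peptide receptor Glp1r at 8.27 ± 0.19 and the calcitonin receptor Calcr at 8.25 ± 0.21. The leptin receptor Lepr was lower at 5.43, 5.83 and 6.11, and the ghrelin receptor Ghsr was at 6.04, 6.16 and 6.23. The melanocortin receptors Mc3r and Mc4r were at 6.88 ± 0.23 and 6.01 ± 0.18. Npy1r, Npy2r and Npy5r, through which neuropeptide Y acts, were at 6.89 ± 0.12, 6.85 ± 0.24 and 4.56 ± 0.11. Gfral, known from the hindbrain, and Klb were under the minimum at 3.64 and 3.77. Ramp3, a partner of calcitonin-family receptors, was the 1 member with an SD over 0.5, at 4.97, 5.78 and 7.50, a 5.76-fold range with Control replicate 6 on top.

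Of the receptors for hypothalamic and pituitary hormones and for steroids, 29 of 32 were over the minimum, with a median level of 6.55 and a median SD of 0.17. Ntsr2, a neurotensin receptor of astrocytes, was highest at 9.68 ± 0.13. Adcyap1r1, the receptor of the peptide PACAP, was at 9.58 ± 0.09, the glucocorticoid receptor Nr3c1 at 8.31 ± 0.14 and the progesterone receptor Pgr at 7.43 ± 0.12. The oxytocin receptor Oxtr was at 6.64 ± 0.18, the vasopressin receptor Avpr1a at 6.43 ± 0.16 and the estrogen receptors Esr1 and Esr2 at 6.50 ± 0.20 and 4.36 ± 0.16. Avpr1b and Gnrhr, receptors known from the pituitary, were under the minimum at 2.81 and 3.17, as was Sstr5 at 4.27. Of the 14 serotonin receptors 12 were over the minimum, with Htr2c, Htr1b (8.10 ± 0.12) and Htr2a (7.79 ± 0.15) strongest. Htr2b (3.25) and Htr3b (4.31) were under it.

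The saline mice gave a baseline for the receptors of the 2 cytokines and for the genes they induce. Il6st, the signalling chain shared by IL-6 and its relatives, was at 9.36 ± 0.10, and Il6ra, which binds IL-6 itself, at 6.11 ± 0.11. The TNF receptors Tnfrsf1a and Tnfrsf1b were at 6.13 ± 0.30 and 5.11 ± 0.13. Il1r1, an interleukin-1 receptor of endothelial and other cells, was at 4.94, 5.72 and 6.10, with Control replicates 3 and 5 lowest. Of the 20 measured genes in the list of cytokine receptors 19 were over the minimum. The exception was Tlr4 (3.99), which is listed with them but is a receptor for LPS. Most of the inducible cytokines were weaker. Il6 was at 2.01, Il1b at 3.64, Il1a at 3.51, Tnf at 4.04, Ifng at 4.02 and Cxcl10 at 3.92, all under the minimum, as were the acute-phase genes Saa2 (3.90) and Saa3 (2.58). For these 8 of 20 genes the signal was not above the level that 95% of the olfactory receptor genes stayed under. Lcn2, an iron-binding acute-phase protein, was at 4.59, 5.05 and 5.47. Ccl2, a chemokine for monocytes, was over the minimum at 4.34 ± 0.21 but also under that level of 4.57. Il33 (8.52 ± 0.17), Il34 (7.24 ± 0.09), Csf1 (7.05 ± 0.15) and Tgfb2 (7.09 ± 0.12), which glia and neurons make at rest, were well over it. Nfkbia, the inhibitor of NF-kB that is itself induced by NF-kB, ran from 7.08 on Control replicate 5 to 8.09 on Control replicate 6. Interferon response genes were weak, with 15 of 18 over the minimum at a median of 5.07, and Ifit3 highest at 6.67 ± 0.43.

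Transcription factors that give hypothalamic neurons their identity were over the minimum in 34 of 35 cases. Only Rax, a factor of tanycytes, lay under it at 4.15. Rorb (9.24 ± 0.16), Arnt2 (8.80 ± 0.08) and Dlx1 (8.60 ± 0.27) were strongest. Fezf1, of the ventromedial nucleus, was at 7.54, 8.08 and 8.53, and its partner in that nucleus, Nr5a1, at 5.75 ± 0.28. Sim1 and Otp, which make the paraventricular nucleus, were at 7.25 ± 0.36 and 6.81 ± 0.20. The Sim1 value of Control replicate 6 was 6.54, while the other 5 mice lay between 7.23 and 7.49. Six6, a factor of the ventral hypothalamus, was at 5.75, 6.29 and 7.05. On Control replicate 5, 20 of the 34 factors had their highest value (58.8%, against 19.9% of all genes), and 13 had their lowest value on Control replicate 6 (38.2%, against 14.6%). Lhx9 and Meis2, both also known from thalamus or cortex, had the widest spread of the list. Lhx9 was at 4.95 on Control replicate 1, 7.63 on Control replicate 6 and between 5.95 and 6.23 on the others, and Meis2 at 6.51 on Control replicate 1 and between 8.03 and 8.59 on the others.

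Genes of the monoamine systems were over the minimum in 12 of 16 cases, close to the 76.3% of all genes. Hdc, which makes histamine in the tuberomammillary nucleus, was at 7.15, 7.78 and 8.68, with Control replicate 1 highest and Control replicate 6 lowest, the order seen for Npy. Th, which makes the dopamine precursor, was at 7.64, 8.31 and 9.09. Slc6a3, the dopamine transporter, was at 6.77, 8.23 and 9.88, an 8.67-fold range. For both, Control replicate 4 was highest and Control replicate 1 lowest. Tph2 and Slc6a4, which make and take up serotonin in the raphe nuclei of the hindbrain, were at 4.25 ± 0.33 and 4.36 ± 0.27, close to the minimum. The cell bodies of these neurons lie outside the hypothalamus. Both means lay under 4.57, the level that 95% of the olfactory receptor genes stayed under. Tph2 was over the minimum on 3 arrays and Slc6a4 on 4, which is why both are counted as over the minimum. Tph1, Dbh, Pnmt and the noradrenaline transporter gene Slc6a2 were under it, while the enzymes that break monoamines down, Maoa (7.83 ± 0.14) and Maob (8.29 ± 0.21), were well over it.

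Markers of each major cell type of brain were over the minimum. Neuronal genes had a median level of 10.49 over 16 of 18 members, including the transporter of glutamate into vesicles Slc17a6 (10.39 ± 0.23) and the enzymes of GABA synthesis Gad1 (9.81 ± 0.14) and Gad2 (10.61 ± 0.15). All 15 astrocyte genes were over the minimum with a median SD of 0.11. Gjb6, a connexin of astrocytes, was at 8.32 ± 0.02, with hardly any spread over the mice. Gfap, the filament of reactive and bordering astrocytes, differed from the rest of its list at 8.13, 9.17 and 9.59, with Control replicate 6 lowest. Myelin genes were strong, with a median of 9.63 over 12 of 12 members, Mobp at 10.86 ± 0.21 and Cldn11 at 10.40 ± 0.34. Control replicate 1 was the lowest array for 11 of these 12 genes (91.7%, against 38.5% of all genes) and Control replicate 4 the highest for 9 of the 12 (against 16.4% of all genes). The low values on Control replicate 1 were not particular to myelin. That array was also lowest for 13 of the 16 neuronal genes (81.25%) and 5 of 8 oligodendrocyte precursor genes (62.5%). For astrocyte genes it was 6 of 15 (40%). Microglial genes were over the minimum in 15 of 15 cases with a median of 6.59 and a median SD of 0.15, C1qb at 8.33 ± 0.17 and Cx3cr1 at 6.92 ± 0.13. Endothelial genes were over it in 15 of 15 cases, led by the glucose transporter Slc2a1 at 10.06, 10.63 and 10.96, and 11 of them were lowest on Control replicate 5 (73.3%, against 20.3%). Ribosomal protein genes (median level 10.13, median SD 0.17) and genes of oxidative phosphorylation (10.34 and 0.12) give the spread of genes that all cells share. The ribosomal genes also moved together by array. Of the 24, 15 were highest on Control replicate 5 (62.5%, against 19.9% of all genes) and 14 lowest on Control replicate 6 (58.3%, against 14.6%).

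**Figure D3:**
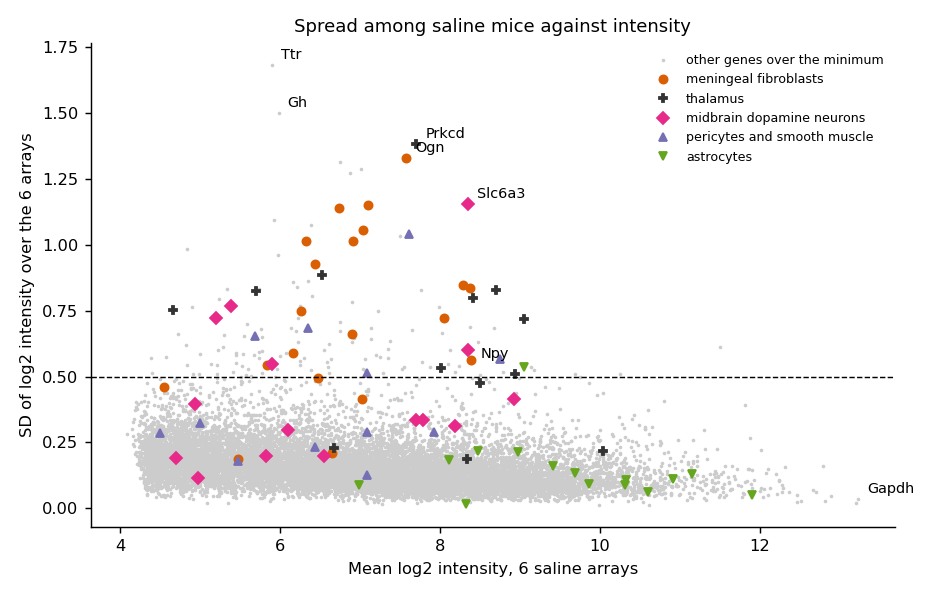
SD of each gene over the 6 saline arrays (vertical axis, log2 units) against its mean log2 intensity (horizontal axis) for the 14360 genes over the minimum, with 5 gene lists in colour and the SD of 0.5 as a dashed line. Genes of meningeal fibroblasts and thalamus lie mostly above the line and astrocyte genes, other than Gfap, below it.

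An SD over 0.5 was reached by 144 of 14360 genes (1.00%), and 403 genes had a range over 2-fold in intensity. The genes on either side of that limit were Dnm3os, a long RNA, at 0.501 and Foxc2, a factor of mesenchyme, at 0.498. Of the 144 genes, 52 were in any list, and the others in none. Of the 144, 44 belonged to lists of cell types or neighbouring tissues and 5 to the peptide, receptor and transcription factor lists. The lists together hold 566 of the 18820 genes, and these counts were not set against the size of each kind of list. Their highest value was on Control replicate 1 for 61 (42.4%, against 1293 of the 14360 genes over the minimum), on Control replicate 6 for 48 (33.3%, against 23.4%) and on Control replicate 4 for 25 (17.4%, against 16.4%). Their lowest value was on Control replicate 6 for 53 (36.8%, against 14.6%), on Control replicate 1 for 41 (28.5%, under the 38.5% of all genes) and on Control replicate 5 for 30 (20.8%, against 20.3%). Without Control replicates 1 and 6, 85 genes were over the limit, 62 of them among the 144. Spread fell with intensity, from a median SD of 0.189 in the 2872 genes of lowest intensity to 0.112 in the 2872 of highest. The SD that marks the top 5% (5.00%) of all genes was 0.313, and 5 of the 38 lists had a median SD over it. These were meningeal fibroblasts (0.74), thalamus (0.72), midbrain dopamine neurons (0.34) and the short lists of vasopressin and oxytocin (0.43) and of erythroid cells (0.50), each of the last 2 resting on 2 genes.

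The widest spread belonged to Ttr, transthyretin, the main secreted protein of the choroid plexus, with an SD of 1.68. It was at 8.44 on Control replicate 3 and 7.61 on Control replicate 5, and between 4.55 and 5.15 on the other 4 arrays. The other choroid plexus genes over the minimum differed in their highest array. Folr1 was highest on Control replicate 3 and Clic6, Sostdc1 and Aqp1 on Control replicate 5, with SDs of 0.17 to 0.26. Kl (SD 0.30) and Kcnj13 (SD 1.29) were highest on Control replicate 1, Slc4a5 (SD 0.13) on Control replicate 4 and Otx2 (SD 0.45) on Control replicate 6, with Otx2 at 4.72 and 4.89 on Control replicates 1 and 5 and 5.37 or more on the others. Kcne2, F5 and Cldn2 were under the minimum. Whether choroid plexus tissue goes with the Ttr values was not tested. Gh, growth hormone, came second. It was at 8.96 on Control replicate 6 and between 4.93 and 5.88 on the other 5. Prl, prolactin, was at 6.43 on Control replicate 6 and at 4.23 or less on the others, so it was over 20 on 1 array only and is not counted as over the minimum. Gh and Prl correlated with r = 1.00 (exact permutation p = 0.00139, adjusted p = 0.0208 over 15 pairs) and rho = 1.00 (exact permutation p = 0.00278, adjusted p = 0.0417), the only pair of the 15 that passed. The 15 pairs were chosen with earlier results of these data known, so passing is no independent test of the pair. Without Control replicates 2 and 6 r was 0.97, and with 1 array left out it was 0.94 to 1.00. Of the 13 measured pituitary genes 8 were over the minimum, and Prl, Tshb (3.09), Fshb (4.07), Epcam and Gnrhr were not. Cga, the shared subunit of pituitary glycoprotein hormones, was highest on Control replicate 3 (6.30), not on Control replicate 6 (5.29).

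Genes of meningeal fibroblasts, the cells of the membranes around the brain, were high and low on the same arrays. All 20 were over the minimum, 18 had an SD in the top 5% and 15 over 0.5. All 20 were above their mean on Control replicates 1 and 4 and all 20 below it on Control replicates 3 and 6. Of all 14360 genes over the minimum, 4079 and 8564 were above their mean on Control replicates 1 and 4. On Control replicates 3 and 6, 6737 and 6057 of them were below it. The list was chosen with earlier results of these data known, so these counts describe it and are no independent test. The mean deviation of the list was 0.78 and 0.77 on the first pair and -0.57 and -1.03 on the second, and its summed intensity ran from 1413 to 5283. Ogn, osteoglycin of the collagen matrix, was at 5.44, 7.91 and 8.99, an 11.7-fold range. Igf2, a growth factor made by meninges, was at 7.16, 8.40 and 9.28 and Dcn, decorin, at 7.71, 8.16 and 9.12. The collagen genes Col1a1 and Col3a1 had the smallest SDs of the list, 0.21 and 0.19, while that of Col1a2 was 0.42. Fmod, Osr1, Slc6a13, Slc13a4, Aldh1a2, Islr and Slc6a20a also stood among the 30 genes of largest SD. Kcnj13, listed with the choroid plexus, followed this block and not Ttr, at 8.35 and 8.09 on Control replicates 1 and 4 and 4.80 on Control replicate 6. Prg4, Ranbp3l, Mpzl2, Itih2, Slc6a12 and Mgp, which are in no list, were highest on Control replicate 1 or 4 and lowest on Control replicate 6. Some antigen-presenting genes of border macrophages and dendritic cells ran likewise. Cd74 was at 6.25 and 6.02 on Control replicates 1 and 4 and H2-Aa at 5.98 and 5.85, against 4.48 to 5.39 on the other arrays for either gene. H2-Ab1 was at 5.57 and 5.40 there and at 5.08 or less on the others. H2-Eb1 differed less, at 5.23 and 5.37 there and at 5.22 and 5.20 on Control replicates 2 and 5. In the leukocyte list Mrc1 was higher on Control replicate 5 (5.94) than on Control replicate 1 (5.88), and Ptprc was highest on Control replicate 6. On Control replicates 3 and 6 Lum was the lowest of the meningeal list at 3.85 and the next, Aldh1a2, was at 4.72, both on Control replicate 6. The part of meningeal tissue in the values of other genes was not tested.

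Genes of thalamus had another order of arrays. All 13 were over the minimum and 10 had an SD in the top 5%. All 13 were highest on Control replicate 6 (100%, against 23.4% of all genes) and 10 were lowest on Control replicate 1 (76.9%, against 38.5%). This list too was chosen with earlier results of these data known, so the shares describe it and are no independent test. The mean deviation of the list was 1.07 on Control replicate 6, 0.29 on Control replicate 2, -0.64 on Control replicate 1 and -0.52 on Control replicate 5, and its summed intensity ran from 2897 to 8431. Prkcd, a kinase strong in thalamic relay neurons, was at 6.25, 7.33 and 9.92, a 12.7-fold range. Tcf7l2, a factor of thalamic neurons, was at 7.72, 8.75 and 10.02. Synpo2 of the same list, Shox2, Gabrd and Nexn, which are in no list, and Ramp3 and Lhx9 were also highest on Control replicate 6 and lowest on Control replicate 1. Ptpn3 was highest on Control replicate 6 as well, at 9.25, and lowest on Control replicate 5, at 6.46. Rora, a clock gene that thalamic neurons also express strongly, ran from 8.05 on Control replicate 1 to 9.87 on Control replicate 6. Slc17a7, the vesicular glutamate transporter of cortex and part of thalamus, was at 4.84 on Control replicate 1, 5.33 on Control replicate 5 and between 6.69 and 7.55 on the others. Control replicate 6 thus held the highest value of every thalamic gene and the lowest of 17 of the 49 peptide genes, and the part of the one in the other was not tested. Without Control replicate 6 the median SD of the thalamic list was 0.38, that of vasopressin and oxytocin 0.27 and that of meningeal fibroblasts 0.60.

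Genes of midbrain dopamine neurons followed a different order again. All 15 were over the minimum, 9 had an SD in the top 5%, 13 were highest on Control replicate 4 (86.7%, against 16.4% of all genes) and 9 lowest on Control replicate 1 (60.0%, against 38.5%). As with the thalamic list, earlier results were known when the list was chosen, so these shares are no independent test. The mean deviation was 0.56 on Control replicate 4, 0.30 on Control replicate 2 and -0.49 on Control replicate 1. Chrna6, a nicotinic receptor subunit of these neurons, was at 4.53, 5.18 and 6.37, and Aldh1a1, an enzyme of ventral midbrain neurons, at 8.52, 8.79 and 9.55. Pitx3, which marks midbrain and not hypothalamic dopamine neurons, was weak at 4.70 ± 0.19 and did not share the order, with its highest value on Control replicate 5. Th and Slc6a3 correlated with r = 0.94 (exact permutation p = 0.0111, adjusted p = 0.0573) and rho = 0.89 (exact permutation p = 0.0333, adjusted p = 0.167), and with r = 0.86 without the 2 arrays farthest from the median of Th. Without Control replicate 4 the median SD of the list was 0.29.

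Contractile cells of vessels formed a further group. Acta2, smooth muscle actin, was at 6.53, 7.18 and 9.13, a 6.08-fold range, with Control replicates 1 and 4 highest at 9.13 and 8.69. Myl9, a myosin light chain, was at 7.88 and 7.60 on these arrays and between 6.71 and 6.86 on the other 4. The pair correlated with r = 0.97 (exact permutation p = 0.0153, adjusted p = 0.0573) and rho = 0.77 (exact permutation p = 0.103, adjusted p = 0.308), but with r = 0.27 without Control replicates 1 and 4. The pericyte genes Pdgfrb (7.09 ± 0.13) and Rgs5 (7.93 ± 0.29) of the same list were steadier. Vtn of that list was not, with an SD of 0.57. It was at 9.53 and 9.28 on Control replicates 1 and 4 and between 8.15 and 8.71 on the others. The mean deviation over the 12 genes was 0.43 and 0.42 on Control replicates 1 and 4 and -0.43 on Control replicate 5. Alas2, the first enzyme of haem synthesis in red cells, was at 7.05 on Control replicate 4 and between 5.28 and 5.77 on the others. The haemoglobin genes were not analysed here.

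**Figure D4:**
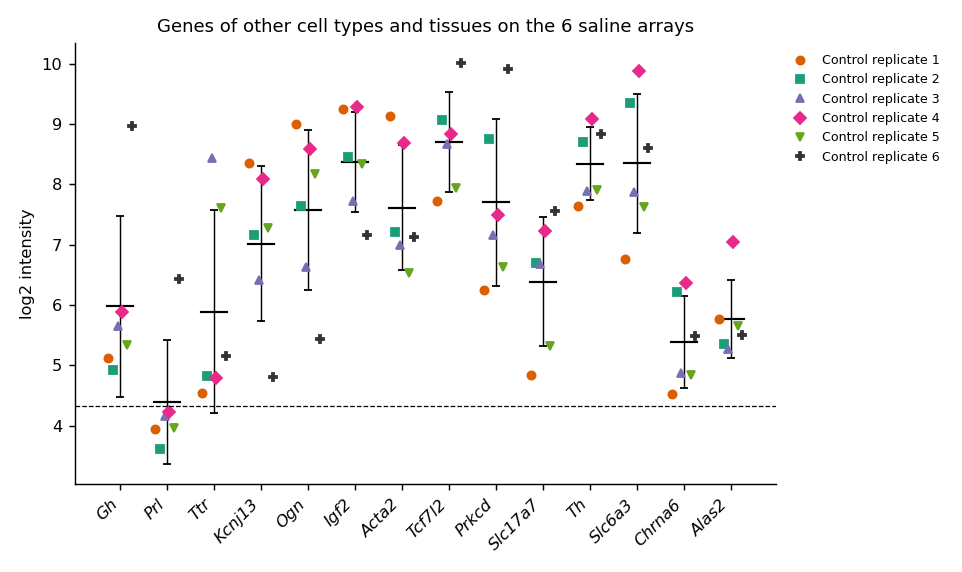
log2 intensity of 14 genes of other cell types and tissues on each of the 6 saline arrays, with a bar for the mean, an error bar for the SD and a dashed line at the minimum intensity. Gh and Prl are highest on Control replicate 6, Ttr on Control replicates 3 and 5, Kcnj13, Ogn, Igf2 and Acta2 on Control replicates 1 and 4, and Th, Slc6a3 and Chrna6 on Control replicate 4.

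**Figure D5:**
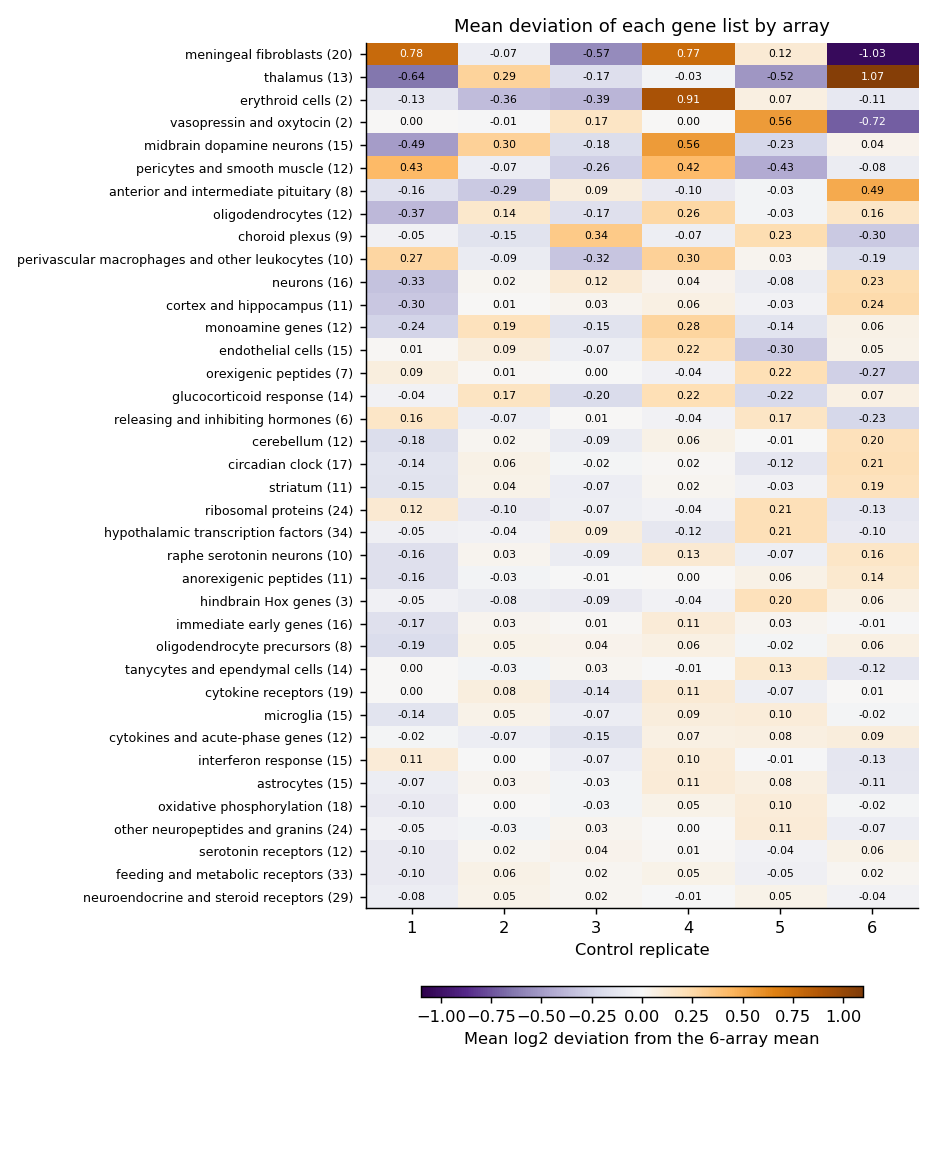
Mean deviation of each gene list from its 6-array mean (log2 units, colour and printed value) on each saline array, with the number of genes over the minimum in brackets and lists ordered by the range over the arrays. The meningeal list runs from -1.03 to 0.78 and the thalamic list from -0.64 to 1.07, while the list of oxidative phosphorylation stays between -0.10 and 0.10.

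Genes that answer to activity, stress hormone and time of day were mostly over the minimum. Of 17 immediate early genes 16 were over the minimum at a median of 5.68. Fos was at 5.23, 5.49 and 5.66, Arc at 5.59, 6.35 and 6.50 and Egr1 at 5.77, 6.44 and 6.75. Control replicate 1 was lowest for these 3 and for 7 of the 16 in all (43.8%, against 38.5% of all genes). All 14 genes induced by glucocorticoids were over it, with Mt2 and Mt1 (11.89 ± 0.09) strongest. Sgk1, a kinase induced by glucocorticoids that oligodendrocytes also carry, was at 7.05, 8.02 and 8.79, while Fkbp5 was at 7.88 ± 0.18. The pair gave r = 0.62 (exact permutation p = 0.203, adjusted p = 0.38) and rho = 0.37 (exact permutation p = 0.497, adjusted p = 0.746). The 17 clock genes had a median SD of 0.164, against 0.146 over all genes, with Clock at 9.62 ± 0.04, Arntl at 7.26 ± 0.11, Per1 at 8.01 ± 0.22 and Per2 at 7.32 ± 0.11. Genes of the Hox clusters, which mark hindbrain and spinal cord, were under the minimum for 15 of 18 members.

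The names of the arrays begin with a letter and the number 07 (Control replicates 1, 3 and 5) or 01 (Control replicates 2, 4 and 6), and nothing in the sources says what they stand for. All genes over the minimum were therefore compared between the 2 numbers with limma. Th alone passed, 1 of 14360 genes (0.00696%). Its mean was 7.81 on the 07 arrays and 8.88 on the 01 arrays, a difference of -1.06 (SE 0.11, adjusted p = 0.0128 from limma), and its values did not overlap between them, from 7.64 to 7.91 against 8.70 to 9.09. Non-overlapping values were found for 2966 genes (20.7%) and an unadjusted p under 0.05 for 2079. The next genes were lower on the 07 arrays at an adjusted p of 0.0589 from limma and did not pass. They include Nkain1, the glucose transporter Slc2a1 (-0.64), the guanylate cyclase Gucy2c (-0.96), the receptor kinase Ret (-0.87) and the myelin gene Mal (-0.52). Of the genes higher on the 07 arrays, Cited1 (0.63, adjusted p = 0.0589), Gpr50 of tanycytes (0.60), Trh (0.57, adjusted p = 0.146), Six6 (0.73) and Tac1 (0.43) were among the 10 of smallest p, and none passed in limma. Lower on 07 were 13 of 13 thalamic and 12 of 12 oligodendrocyte genes (11 of 12 with median centring or quantile normalization), against 65.3% of all genes, a share of 53.1% with quantile normalization. Higher were 27 of 34 hypothalamic transcription factors and 21 of 24 ribosomal protein genes, against 34.7%. With the letter as a block 217 genes passed, on 1 residual degree of freedom, and without an intensity trend of the variance 0 passed. Number, mouse and dissection cannot be told apart with 3 arrays of each number.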

How the data were processed

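Hypothalamic RNA of 6 saline mice was read on 6 Affymetrix Mouse Gene 1.1 ST arrays. The authors deposited RMA values on a log2 scale (background correction, quantile normalization and summary per transcript cluster), per the labels and methods. RMA ran over all arrays, so that spread common to a whole array was already reduced. The methods describe probe sets remapped to Entrez genes, whereas the table holds 35556 transcript clusters. Clusters were named through GEO's platform annotation with symbols updated by RefSeq: 21218 named 1 gene, 1881 several and 12457 none, and only the first were used. Where a gene had several clusters (1386 of 18820 genes), the cluster of highest mean over the 6 arrays was taken. No pseudocount was added. Precision is limited by the 6 arrays, and a p-value covers only the spread between these samples.

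Genes over an intensity of 20 on at least 3 arrays entered the measures of spread. Array-name numbers were compared with limma 3.58.1 in R 4.3.3 (eBayes with trend, Benjamini-Hochberg adjustment), checked on simulated data. Gene pairs were tested over the 720 orders of 6 arrays (two-sided exact permutation) with scipy 1.17.1 in Python 3.11.15. Of 625 genes in 38 lists 566 were measured and 59 were not analysed here. The genes named are members of these lists, the 20 of highest intensity, the 30 of largest SD, the genes nearest the SD limit and the leading genes of the array-number comparison. Others named in the text were chosen after their values were seen. The 6 arrays, the lists and the pairs were chosen with earlier results of these data known. Shares of list members set beside all genes, and p-values of the pairs, are therefore descriptions and not independent tests. Alternatives were quantile normalization, median centring, the mean over clusters, other minimum intensities, leaving out arrays, and other limma settings.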

Additional observations from a re-analysis of the deposited data

Results flagged for a closer look

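For 209 genes and 38 lists, the array farthest from the others was measured against the range of all 6, and 15 of these 247 values (6.07%) stood apart. Chance alone sets apart about 1 group in 20 where genes are not chosen by their values. Some of these genes were chosen by their spread or after their values were seen, so the rates cannot be compared. By array, 5 lay on Control replicate 1, 4 on Control replicate 6, 3 on Control replicate 4, 2 on Control replicate 5 and 1 on Control replicate 3.

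On Control replicate 6, Gh was at 8.96 on the log2 scale, against 4.93 to 5.88 on the others, and Prl at 6.43, against 3.62 to 4.23. Sim1 was low on the same array at 6.54, against 7.23 to 7.49, and Map1b high at 12.20, against 12.00 to 12.07. Control replicate 1 was low for Meis2 (6.51, against 8.03 to 8.59), Oxtr (6.28, against 6.65 to 6.81) and Penk (10.35, against 10.48 to 10.55), and high for Mc3r (7.31, against 6.63 to 6.84). The list of oligodendrocyte precursors lay at a mean deviation of -0.192 on that array, against -0.02 to 0.06 on the others.

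On Control replicate 4, Alas2 was at 7.05, against 5.28 to 5.77, Col3a1 at 5.83, against 5.34 to 5.51, and the erythroid list of 2 genes at a mean deviation of 0.9125, against -0.39 to 0.07. On Control replicate 5, Il34 was at 7.42, against 7.16 to 7.24, and Tgfb2 at 7.32, against 6.99 to 7.10. Il6 was at 2.49 on Control replicate 3, against 1.85 to 2.02, all under the minimum intensity.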

How the results depend on the processing

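No paired analysis was possible because only 1 group, the saline mice, was used. The number of genes over the minimum (14360) lay between 11025 and 14364 under all alternatives. The 144 genes with an SD over 0.5 became 102 to 182 with 1 array left out, 213 with no filter on intensity, 111 with a minimum of 50, and 85 without Control replicates 1 and 6, an alternative chosen after seeing the data, as was the olfactory receptor level. The median SD of 0.146 was 0.129 to 0.149 with 1 array left out (lowest when Control replicate 1 was dropped), 0.155 with no filter, 0.1337 with a minimum of 50 and 0.1202 without Control replicates 1 and 6. The 1 gene called by limma for the array-name number became 0 without the intensity trend, 217 with the letter as a block and 0 to 4 with 1 array left out. It was 0 on leaving out Control replicate 3 or 5, 2 on leaving out Control replicate 1, and 4 on leaving out Control replicate 4 or 6. The causes were not tested. The 1 gene pair that passed became 0 whichever array was left out, which says nothing about its stability, since 5 arrays allow no exact permutation p under 0.00833, adjusted 0.125 for a single pair of 15, and r of Gh and Prl stayed at 0.94 to 1.00. The lists whose median SD was in the top 5% numbered 5, and 4 to 7 with 1 array left out. The erythroid list fell to 0.202 without Control replicate 4 and vasopressin and oxytocin to 0.268 without Control replicate 6. Quantile normalization left 209 of 209 named levels within 1 SD, and the mean over clusters left 201, with Fth1 (9.06 in place of 12.37), Gapdh, Hsp90aa1, Hspa8, Insr, Rpl21, Ywhah and Ywhaz outside it. Signals near the minimum limit what can be said of cytokines, Crh and serotonin genes.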
